A study of Canis lupus familiaris with 17 samples.

Results

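Plasmacytoid dendritic cells (pDCs) were followed in the blood of 17 dogs by 3′ single-cell RNA sequencing. A cell was taken as a pDC when it held at least 1 unique molecular identifier (UMI, a tag that counts single RNA molecules) of TCF4, none of CD3E, MS4A1 or PAX5, and at least 3 of the 6 genes COBLL1, RAB3C, IGF1, RYR1, PRKG1 and CYYR1. This rule found 245 pDCs among 84361 kept cells, or 0.290%, with 126 in healthy dogs and 119 in dogs with osteosarcoma. The members were thus chosen by their measured UMI counts of these 10 genes, which are described here and not tested.

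The samples were leukocytes from blood spun over a Ficoll density gradient, labeled as peripheral blood mononuclear cells of wild-type genotype. The 7 healthy dogs (H1 to H7) were client-owned, middle-aged and clinically healthy. The 10 osteosarcoma dogs (OS1 to OS10) were middle-aged or old, carried a primary bone tumor, had received no treatment and were bled before amputation. Each library was 1 dog bled a single time, so a dog is the replicate throughout, and differences in breed, sex and age between dogs are part of the spread. Old dogs were in the osteosarcoma group only, so between the groups age and osteosarcoma cannot be fully told apart.

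In mammals, pDCs are a rare circulating dendritic cell type that depends on the transcription factor TCF4 and is known for releasing large amounts of type I interferon. They sense nucleic acids inside endosomes through the Toll-like receptors TLR7 and TLR9, which signal through the adaptor MYD88, and their extensive endoplasmic reticulum serves secretion. Conventional dendritic cells (cDCs), by contrast, are specialized in presenting antigen on MHC class II molecules.

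The pDCs were among the deeper cells of these libraries. The matrices held 7740230 to 56510134 UMIs per dog, and kept cells held a median of 5363 UMIs. A pDC held a median of 14569 UMIs and 3637 genes, close to the 15483 UMIs of a cDC and above the 11557.5 of a monocyte, the 5463 of a T cell and the 4577 of a B cell. The limits of 4500 genes and 20000 UMIs removed 54 of 299 cells that met the rule (18.1%) against 3.43% of all cells. The 10% limit on mitochondrial UMIs removed 19 of 264 (7.20%) against 4.21%. Together the 54 cells held 930 UMIs of IRF8 and 331 of STYXL2, but also 2110 of the monocyte gene LYZ and 46 of the progenitor gene CD34. Whether all of them are pDCs was not tested, and such cells enter the alternatives with no upper limits. The median mitochondrial share was 5.43% in pDCs and 2.89% in all kept cells. Barcodes seen in more than 1 library numbered 922, with at most 16 for any pair of libraries, and 3 of them were pDC barcodes, none a pDC in both libraries. In an alternative, the 3938 barcodes with the highest Scrublet scores were left out as likely doublets, 9 of them pDCs and 5 of these from OS7. Their number was set by an assumed rate of 0.8% per 1000 barcodes, and Scrublet's own threshold marked 1469.

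The genes of the rule were carried unequally. COBLL1 was found in 240 of the 245 pDCs, IGF1 in 239, RYR1 in 233 and RAB3C in 231. PRKG1 was found in 127, or 51.8%, and it varied between dogs more than the others did: 4 fitted dogs (OS5, OS8, OS9 and OS10) had it in 7.14% to 14.3% of their pDCs and the other 6 in 54.8% to 90.0%. CYYR1 was found in 0 of 245 pDCs and had 25 UMIs in the whole series, so the rule asked in effect for 3 of 5 genes.

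The edge of the rule was sparsely filled. Among TCF4-positive cells without CD3E, MS4A1 and PAX5, exactly 0, 1, 2, 3, 4 and 5 of the 6 genes were found in 7852, 1369, 111, 20, 115 and 110 cells. Just inside, at 3 genes, the median TCF4 count was 36 UMIs, and just outside, at 2 genes, it was 6. TCF4 and the 6 genes belong to the rule, so these counts only describe the selection. IRF8, the interferon regulatory factor that dendritic cell development needs, was found in 90.0% of the cells inside and 44.1% of those outside. The B cell adaptor gene BLNK was found in 100% and 45.0%, and the endosomal receptor gene TLR9 in 5 of 20 cells and 2 of 111. The lysosomal thiol reductase gene IFI30 went the other way, with 45.0% inside and 79.3% outside. At 4 and 5 genes IFI30 was found in 4.35% and 6.36% of cells, so the 20 cells at 3 genes lay in between.

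**Figure D1:**
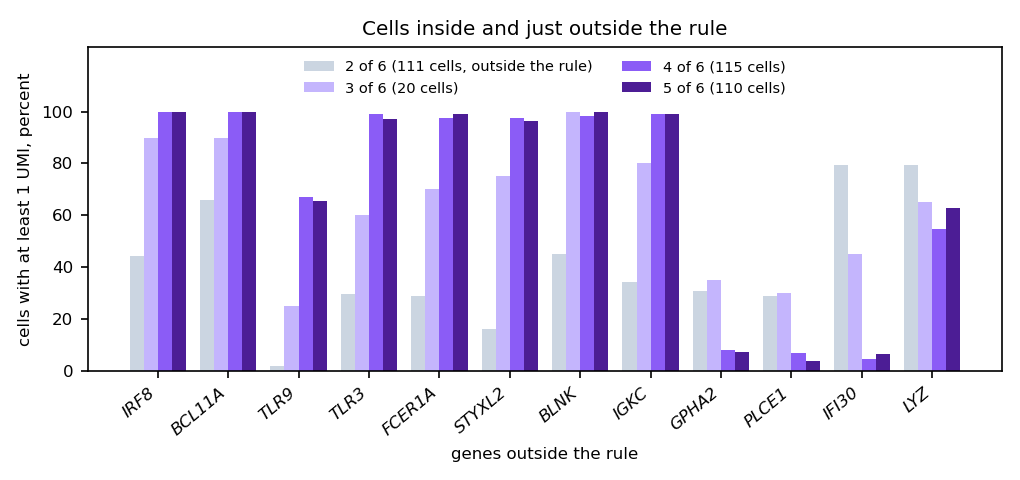
The percent of cells with at least 1 UMI of 12 genes outside the rule, for cells holding exactly 2 (111 cells, outside the rule), 3 (20 cells), 4 (115 cells) or 5 (110 cells) of the 6 genes. IRF8, BLNK and IGKC stood high from 3 genes upward, whereas IFI30 and the pre-DC genes GPHA2 and PLCE1 were common at 2 and 3 genes and rare above.

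The pDC share of kept cells differed widely between dogs and overlapped between the groups. In healthy dogs it had a lowest value of 0.0302% (H2), a median of 0.212% and a highest of 1.04% (H6, 51 cells). In osteosarcoma dogs it had a lowest value of 0% (OS3), a median of 0.274% and a highest of 0.509% (OS5, 28 cells). OS3 gave 0 pDCs of 1239 kept cells, which by 3 counts allows a share of up to 0.242% (its exact interval in the plot of shares ends at 0.297%), so its pDCs could lie at the level of several other dogs and go unseen. The 95% exact (Clopper-Pearson) intervals cover counting error only and ran from 0.779% to 1.37% for H6 and from 0.338% to 0.734% for OS5.

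Healthy and osteosarcoma dogs did not pass a test of difference in this share. The mean was 0.350% ± 0.366 (SD, n = 7) in healthy and 0.234% ± 0.184 (SD, n = 10) in osteosarcoma dogs, the median shift over pairs of dogs was -0.0395 percentage points, and p was 0.601 by an exact rank-sum test (Wilcoxon, two-sided). Set against pDCs and cDCs together, pDCs were 5.56% to 36.4% in healthy dogs and 0% to 39.5% in osteosarcoma dogs, with p = 0.983 by the same exact test. Neutrophil-like cells made up 37.7% of the kept cells of H7 and 1.97% to 10.9% of those of the other dogs, and leaving them out of the total gave p = 0.536 by the exact test. The limits on genes and UMIs remove cells that meet the rule more often than other cells, so every share given here is a share of the cells those limits keep.

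**Figure D2:**
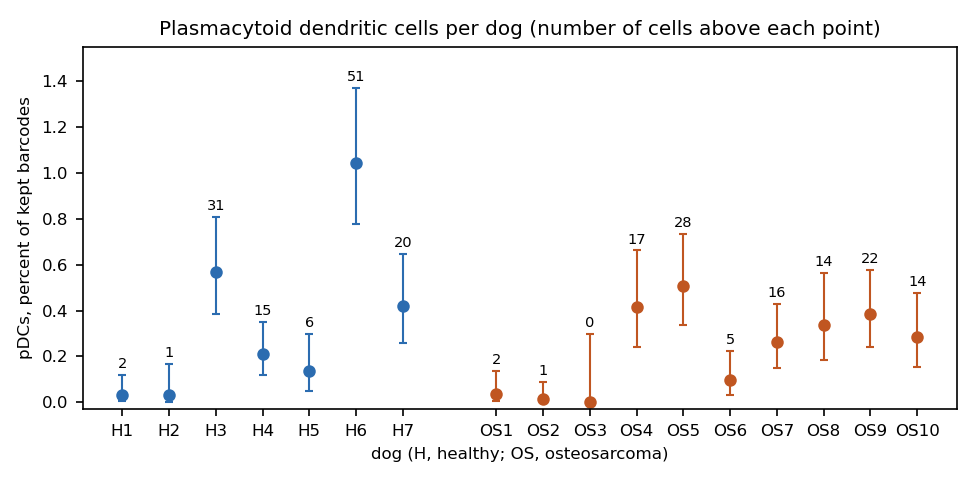
pDCs as a percent of kept cells in each of 7 healthy (H, blue) and 10 osteosarcoma (OS, orange) dogs, with 95% exact binomial intervals and the number of pDCs above each point. H6 reached 1.04% and both groups held dogs near 0, so the groups overlapped.

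Expression was compared on UMI counts summed per dog and cell class in the 10 dogs (H3, H4, H6, H7, OS4, OS5, OS7, OS8, OS9 and OS10) with at least 10 pDCs. These sums held 228 pDCs and 3286266 UMIs, with 184765 to 747633 per dog. Levels are CPM, the count of a gene scaled to a fixed total for all UMIs of the class, given as the mean ± SD over 10 dogs, and log2 fold changes (± standard error) come from edgeR's quasi-likelihood test with the dog as a block. A gene was called at a Benjamini-Hochberg adjusted p below 0.01 and a log2 fold change beyond 0.58. The 3 other classes were cDCs, B cells and monocytes gated on their own marker genes, and the 10 rule genes were left out of every count. The genes that gated cDCs and monocytes were left out of the comparison with their own class and of counts over all 3 comparisons.

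The pDCs stood apart from each class. Against cDCs, 1476 of 11170 genes were called higher in pDCs (13.2%) and 2134 lower (19.1%). Against B cells, 1769 of 11388 were higher (15.5%) and 2135 lower (18.7%), and against monocytes 1996 of 13516 were higher (14.8%) and 3005 lower (22.2%). In either direction these were 32.3%, 34.3% and 37.0% of the genes tested. Of 10651 genes tested in all 3 comparisons, 809 (7.60%) were higher and 659 (6.19%) lower in pDCs each time, and for 368 (3.46%) the lowest pDC level lay above the highest level of any dog in the other 3 classes. The median log2 fold change over all genes was -0.12, -0.18 and -0.24 against cDCs, B cells and monocytes, and for monocytes it moved to 0.14 with DESeq2 and to -0.15 with DESeq2 size factors. The 3 comparisons share the same pDC sums, so they are not independent of each other.

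Of the transcription factor genes outside the rule, IRF8, BCL11A, RUNX2 and MYBL2 were higher in pDCs in all 3 comparisons and SPI1 was lower in all 3. Of 9 transcription factor genes tested, 4, 6 and 5 were higher in pDCs than in cDCs, B cells and monocytes and 3, 1 and 4 lower (median log2 fold changes -0.19, 1.73 and 2.06). Over all genes, 13.2%, 15.5% and 14.8% were higher and 19.1%, 18.7% and 22.2% lower. IRF8 had a lowest pDC level of 464, a median of 776 and a highest of 1086 CPM, against means of 61.8 ± 14.6 in cDCs, 118 ± 21.4 in B cells and 27.8 ± 8.03 in monocytes. Every dog's pDC level lay above every level in the other classes, with log2 fold changes of 3.55 ± 0.11, 2.83 ± 0.10 and 4.54 ± 0.14. With a UMI of IRF8 were 99.2% of pDCs and 1.32% of T cells, a background class with a median of 5463 UMIs, and the values were 71.8% and 0.554% with each cell thinned to 2000 UMIs.

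BCL11A, a zinc finger factor of lymphoid and pDC development, had a lowest pDC level of 1107, a median of 1279 and a highest of 1512 CPM. Its mean was 289 in cDCs, 724 in B cells and 54.6 in monocytes, and no dog's level in those classes reached the pDC range. RUNX2, a runt factor with a role in pDC migration, ran from 336 through a median of 654 to 1095 CPM in pDCs, against means of 131, 46.4 and 34.1 CPM. Its groups did not overlap either (log2 fold changes 2.29 ± 0.13, 3.87 ± 0.14 and 4.05 ± 0.14). MYBL2, a factor of proliferating cells, was also higher in all 3 comparisons, at a mean of 30.0 CPM against 0.419, 6.19 and 0.439 CPM.

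SPI1, the myeloid factor PU.1, had a lowest pDC level of 0, a median of 10.4 and a highest of 56.9 CPM, against means of 363, 79.9 and 374 CPM, and its groups did not overlap. KLF4 and IRF4, factors of monocyte and cDC subsets, were lower than in cDCs and monocytes (log2 fold changes of -3.26 ± 0.38 and -3.57 ± 0.36 for KLF4, -2.55 ± 0.19 and -1.79 ± 0.22 for IRF4) but were not called against B cells. IRF4 stood at 22.1 ± 17.4 CPM in pDCs and 37.0 ± 14.9 in B cells, lower in 9 of 10 dogs (-0.56 ± 0.24, adjusted p = 0.0535 by edgeR), and was called lower there with at least 4 genes of the rule required (-1.20), with no upper limits on genes and UMIs (-1.51) and without H3 (-0.81). CBFA2T3, a corepressor of pDCs, was at 69.9 CPM, higher than in B cells and monocytes (1.36 ± 0.18 and 2.06 ± 0.17), and was not called against cDCs at 80.6 CPM. ZEB2, a factor of dendritic and myeloid cells, stood at 1221 CPM in pDCs, was higher than in B cells and lower than in monocytes, and was not called against cDCs at 1264 CPM. Levels of IRF7, SPIB and ID2 were not analysed here.

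**Figure D3:**
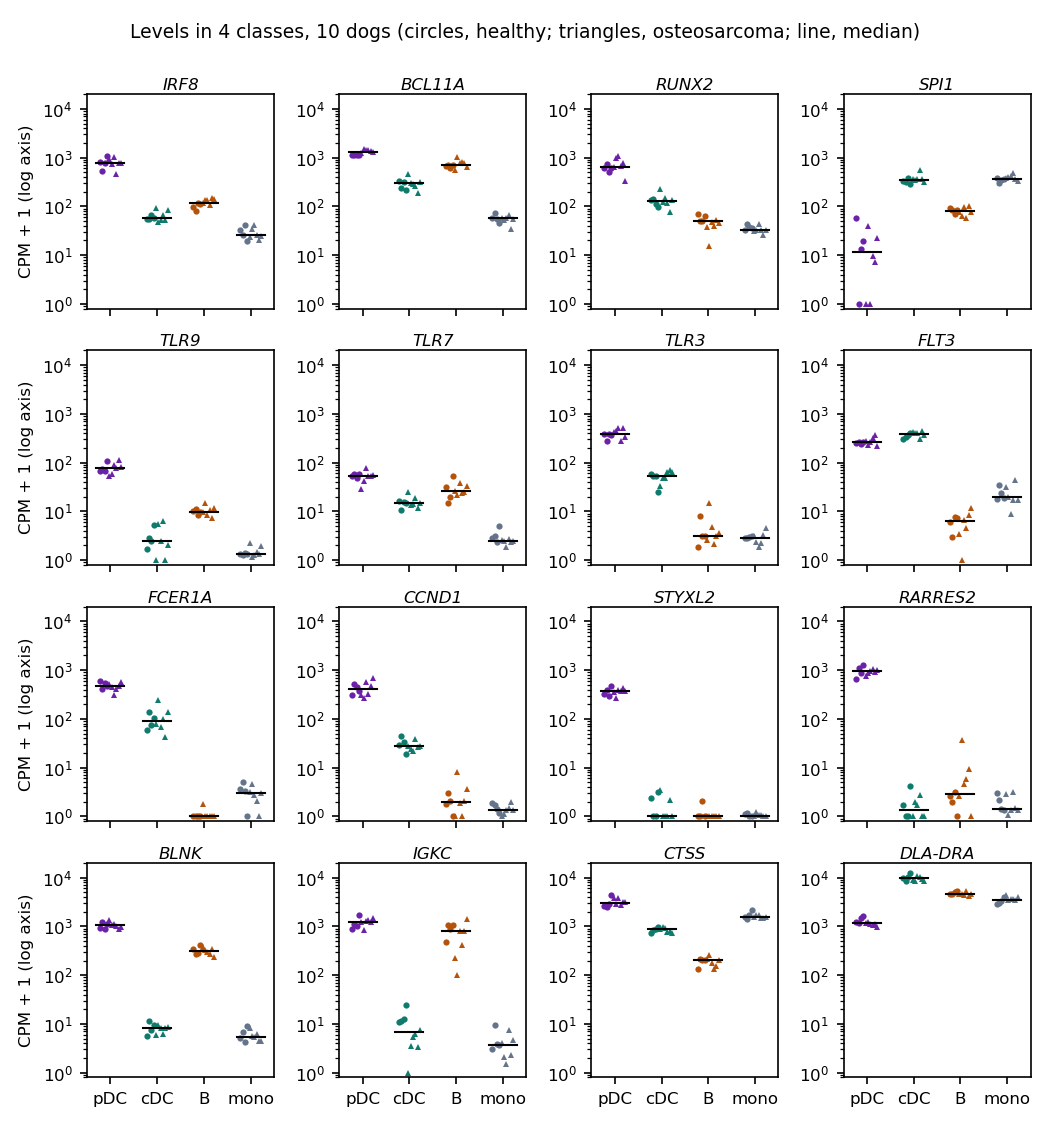
Levels (CPM plus 1, log axis) of 16 genes in pDCs, cDCs, B cells and monocytes (mono) of 10 dogs, with a circle for each healthy dog, a triangle for each osteosarcoma dog and a line at the median. For IRF8, TLR9, TLR3, STYXL2 and RARRES2 the lowest pDC value lay above every other class, whereas SPI1 and DLA-DRA lay lowest in pDCs.

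The receptors that pDCs use to sense nucleic acids were high. TLR9, the endosomal receptor for unmethylated CpG DNA, had a lowest pDC level of 51.2, a median of 75.3 and a highest of 115 CPM, against means of 2.08 ± 1.94 in cDCs, 9.21 ± 2.16 in B cells and 0.488 ± 0.340 in monocytes. The groups did not overlap, and the log2 fold changes were 4.89 ± 0.27, 3.22 ± 0.20 and 7.16 ± 0.27. TLR7, the receptor for single-stranded RNA, ran from 27.5 through 52.4 to 77.7 CPM, against means of 14.7, 27.9 and 1.76 CPM. Its pDC level was the higher in 10 of 10 dogs, but the ranges of pDCs and B cells overlapped (log2 fold change 0.99 ± 0.19).

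TLR3, the receptor for double-stranded RNA, was high in pDCs of every dog. Its lowest pDC level was 274, its median 390.0 and its highest 520.5 CPM, against means of 50.5 in cDCs, 3.76 in B cells and 1.94 in monocytes. No class overlapped with pDCs, and the log2 fold changes were 2.82 ± 0.13, 7.12 ± 0.19 and 7.44 ± 0.17. A UMI of TLR3 was found in 95.1% of pDCs and 0.994% of T cells (55.9% and 0.367% after thinning), of TLR9 in 62.9% and 0.252% (13.5% and 0.0620%), and of TLR7 in 51.4% and 0.0306%. The shares in T cells, which should lack these receptors, are read as background.

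Of the 26 genes of endosomal sensing and interferon induction that were tested, 9, 14 and 11 were higher in pDCs than in cDCs, B cells and monocytes, and 4, 5 and 9 were lower. The shares over all genes were 13.2%, 15.5% and 14.8% higher and 19.1%, 18.7% and 22.2% lower. The list's median log2 fold changes were 0.15, 0.84 and 0.06, so the list as a whole lay near the all-gene medians against cDCs and monocytes. In all 3 comparisons 8 were higher, namely the 3 receptors, MYD88, SLC15A4, which carries peptides and histidine across the endolysosomal membrane, PLD4, an endolysosomal exonuclease, the kinase CHUK and STAT2, which carries the interferon signal. PLD4 stood at 115 ± 62.3 CPM in pDCs against 52.8, 30.2 and 3.19 CPM, higher in 10 of 10 dogs each time. UNC93B1, the chaperone that brings these receptors to endosomes, was at 417 CPM and was called against B cells and monocytes but missed the fold limit against cDCs (0.41 ± 0.08). Lower in all 3 were IRF3, JAK1 and MAVS, the adaptor of cytosolic RNA sensing, which had a mean of 1.45 CPM in pDCs against 15.1, 11.8 and 12.5 CPM. MYD88 missed the threshold against monocytes in 2 alternatives and SLC15A4 against B cells in 2 and monocytes in 1.

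Among genes that interferon induces, IFI44 was higher and EIF2AK2 and SAMD9L were lower in pDCs in all 3 comparisons. Of 20, 18 and 20 interferon-stimulated genes tested, 4, 5 and 2 were higher in pDCs than in cDCs, B cells and monocytes, and 9, 5 and 15 lower. The median log2 fold changes were -2.39, -0.85 and -4.84, or -1.10, -0.74 and -2.44 with genes absent from 1 class set at their bound. The shares over all genes were 13.2%, 15.5% and 14.8% higher and 19.1%, 18.7% and 22.2% lower. The balance against cDCs and B cells turned on the count filter: with filterByExpr, which kept 7 genes in each, 4 and 5 were higher and 1 and 1 lower (medians 1.04 and 1.10), whereas against monocytes 2 of 15 were higher and 10 lower (-1.83). IFI44 was at 109 ± 62.8 CPM in pDCs against 28.2, 32.5 and 55.0 CPM, with overlapping ranges. HERC6, ISG15 and RTP4 were near 0 in pDCs, with means of 0.797, 1.59 and 0.256 CPM against 71.7, 48.7 and 20.7 CPM in monocytes. EIF2AK2 encodes the RNA-sensing kinase PKR.

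Genes of the endoplasmic reticulum and secretory pathway were mostly higher in pDCs. Of 30 tested, 18, 25 and 19 were higher in pDCs than in cDCs, B cells and monocytes, and 0, 1 and 3 lower. The median log2 fold changes were 1.00, 1.71 and 1.01, against all-gene medians of -0.12, -0.18 and -0.24, and 17 of the 30 were higher in all 3 (7.60% of all genes were). LMAN1, a cargo receptor between endoplasmic reticulum and Golgi, had a lowest level of 130.0, a median of 264 and a highest of 342 CPM, against means of 55.7, 19.1 and 42.9 CPM, with no overlap. SEC61B of the translocon stood at 634 ± 80.3 CPM against 247, 102 and 241, and SSR3 of the translocon-associated complex at 1058 ± 104 CPM against 457, 289 and 319.6. DERL3, which removes misfolded proteins, was at 72.1 CPM against 0.680, 12.7 and 0.207.

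Plasma cells share this pathway, and their marker list was therefore read too. The 9 plasma cell markers summed to 578 to 675 CPM in the pDCs of healthy and 451 to 812 in those of osteosarcoma dogs, led by FKBP11 (282 CPM), and 4 of 8, 4 of 9 and 5 of 9 tested were higher than in cDCs, B cells and monocytes, with 1, 2 and 0 lower. Against B cells this was 3 higher and 4 lower with no upper limits on genes and UMIs. In the main comparisons, 13.2%, 15.5% and 14.8% of all genes were higher and 19.1%, 18.7% and 22.2% lower. TXNDC5, LMAN1 and DERL3, all 3 genes of the endoplasmic reticulum or its exit, were higher each time. XBP1, the factor that expands the endoplasmic reticulum, was higher in all 3 comparisons but at only 19.7 ± 6.95 CPM. JCHAIN and MZB1, which plasma cells carry in large amounts, were at means of 4.26 and 4.78 CPM in pDCs, and JCHAIN was lower than in B cells (35.6 CPM).

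Antigen presentation went the other way. Of 15 tested genes, 11, 12 and 11 were lower in pDCs than in cDCs, B cells and monocytes, and 1, 2 and 2 higher, with median log2 fold changes of -2.45, -1.86 and -1.41. Over all genes, 19.1%, 18.7% and 22.2% were lower and 13.2%, 15.5% and 14.8% higher. DLA-DRA, the alpha chain of the canine class II molecule DR, ran from 990.4 through 1188 to 1669.9 CPM in pDCs, against means of 9767 ± 1238, 4727 ± 374 and 3567 ± 462 CPM. No class overlapped with pDCs for it (log2 fold changes -3.14 ± 0.06, -1.86 ± 0.07 and -1.82 ± 0.09). CD74, the class II chaperone, CIITA, the class II transactivator, and the costimulatory genes CD80, CD83 and CD40 were also lower in all 3.

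CTSS, the protease cathepsin S that trims CD74, was the single gene of this list that was higher in all 3. Its lowest pDC level was 2537, its median 3030.3 and its highest 4319 CPM, against means of 860.1 in cDCs, 189.6 in B cells and 1644 in monocytes, and its groups did not overlap. The log2 fold changes were 1.73 ± 0.06, 4.19 ± 0.09 and 0.66 ± 0.07, and the monocyte call was lost with the 3 dogs that held 25 pDCs or more (0.50). DLA genes have near-identical copies, so their counts are uncertain. Several members described here and below (CTSS, DLA-DRA, CD74, LMAN1 and other secretory genes, and the lymphoid genes) were singled out after their values were seen.

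**Figure D4:**
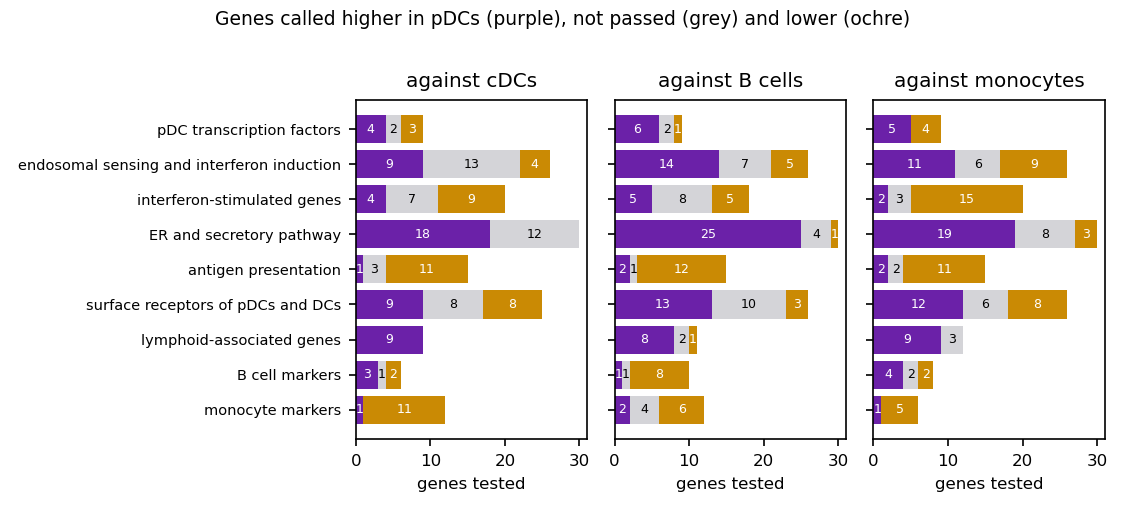
The number of genes in 9 lists called higher in pDCs (purple), not passed (grey) and lower (ochre) against cDCs, B cells and monocytes. In the endoplasmic reticulum (ER) and secretory list 18, 25 and 19 of 30 were higher, and in antigen presentation 11, 12 and 11 of 15 were lower. Over all genes, 13.2%, 15.5% and 14.8% were higher and 19.1%, 18.7% and 22.2% lower.

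Among surface receptors, 9 of 25, 13 of 26 and 12 of 26 genes were higher in pDCs than in cDCs, B cells and monocytes, and 8, 3 and 8 lower, with median log2 fold changes of 0.05, 1.02 and 0.73. Over all genes, 13.2%, 15.5% and 14.8% were higher and 19.1%, 18.7% and 22.2% lower. FCER1A, the alpha chain of the high-affinity IgE receptor, had a lowest pDC level of 303, a median of 473 and a highest of 611 CPM. Its mean was 104 ± 59.6 in cDCs and 1.97 ± 1.36 in monocytes, B cells held a single UMI of it, and no class overlapped with pDCs. PTPRS, a receptor phosphatase that the study lists for pre-dendritic cells and not for pDCs, stood at 105 ± 39.7 CPM against 11.1, 9.22 and 0.138, also without overlap. P2RY14, a receptor for UDP sugars, was at 54.6 ± 20.7 CPM and had 0 UMIs in B cells, so it was at least 155-fold higher there. GPR183 and ITGAE were higher in all 3 too, with pDC means of 203 and 55.0 CPM.

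Growth factor receptors split. FLT3, whose ligand drives dendritic cell development, was at 270.4 ± 43.5 CPM in pDCs, 374 ± 46.0 in cDCs, 4.94 in B cells and 22.5 in monocytes. It was higher than in B cells and monocytes (5.80 ± 0.17 and 3.41 ± 0.15) and just past the limit for lower than in cDCs (-0.62 ± 0.09), a call that the thinned sums, a stricter filter and leaving out OS5 (-0.57) or OS10 (-0.56) each ended. CSF1R, the receptor of the macrophage growth factor, was at 2.99 CPM against 118 in cDCs and 276 in monocytes.

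IL3RA, the CD123 chain by which human pDCs are usually sorted, was close to absent. Its lowest, median and highest pDC levels were 0, 0.669 and 12.9 CPM. It was found in 3.27% of pDCs and 2.13% of T cells, or 0.816% and 0.885% after thinning, so the shares were close. Its values moved with the cells at the edge of the rule, and which pDCs held its few UMIs was not tested. The call against monocytes (2.68 ± 0.69) was lost when H3 was left out (2.28), when OS5 was left out (2.15), with doublets left out (2.28) and with at least 4 genes of the rule required (0.50). Against cDCs it was not called (-0.43), but it was called lower with at least 4 genes required (-2.53), and against B cells (1.85) it was called higher only without the dog as a block (2.10).

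Several genes known from lymphocytes or from human pDCs were higher in pDCs than in all 3 classes, BLNK, BLK and DNTT among them. Of 14 such genes in the files, 9, 11 and 12 had enough counts to be tested, and 9, 8 and 9 were higher than in cDCs, B cells and monocytes, with 1 lower than in B cells (median log2 fold changes 6.05, 1.82 and 5.74). Over all genes, 13.2%, 15.5% and 14.8% were higher and 19.1%, 18.7% and 22.2% lower. A gene read in pDCs alone can pass the count filter through them, so the counts of this list say nothing of the genes that did not pass: RAG2 had 0 UMIs in all 4 classes, and CD7 was at 1.62 CPM in pDCs and not called where tested. BLNK, the adaptor below the B cell receptor, had a lowest pDC level of 871, a median of 1056 and a highest of 1358 CPM, against 318 ± 58.9 in B cells, 7.14 in cDCs and 4.99 in monocytes. Its groups did not overlap, and the log2 fold change over B cells was 1.82 ± 0.09. BLK, a Src-family kinase of B cells, was at 169 ± 35.2 CPM against 32.3 ± 11.7 in B cells, and FCRLA, a B cell Fc receptor-like gene, at 362 ± 87.7 against 138 ± 23.5, both without overlap.

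DNTT, the template-independent DNA polymerase of antigen receptor assembly, ran from 48.7 through 91.9 to 156 CPM in pDCs, with means of 1.29 in B cells, 0.430 in cDCs and 0.556 in monocytes. It was found in 60.0% of pDCs and 1.91% of T cells. The study lists DNTT, like ZNF521, for its CD34+ unclassified cells, a class that was not compared here. RAG1, which cuts DNA in the same process, reached 3.71 ± 4.15 CPM and had 0 UMIs in the other 3 classes. PACSIN1, CUX2 and GPM6B, which have been tied to human pDCs, were higher in all 3 comparisons with means of 232, 96.1 and 28.0 CPM, whereas GZMB, abundant in human pDCs, was found in 1.63% of pDCs and 24.3% of T cells.

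IGKC, the immunoglobulin kappa constant gene, had a lowest pDC level of 829.07, a median of 1248 and a highest of 1755 CPM. In B cells it ran from 98.8 through 801 to 1435 CPM, so the ranges overlapped, although pDCs were the higher in 10 of 10 dogs (1.00 ± 0.16). The share of cells with a UMI differed more than the mean did, with 97.6% of pDCs, 14.2% of B cells and 2.63% of T cells (86.5%, 12.6% and 1.05% after thinning). The call against B cells was lost with no upper limits on genes and UMIs (0.78, adjusted p = 0.0153 by edgeR, against 2e-06 with them). IGHM, the mu heavy chain, was lower in pDCs (73.6 ± 27.3 CPM) than in B cells (209 ± 75.6). Immunoglobulin genes have near-identical copies, so how reads were divided among them is uncertain.

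Of the 10 B cell markers, 8 were lower in pDCs than in B cells and 4 were at 0 in the pDCs of the 10 dogs, CD79B, EBF1 and VPREB3 among them. FCRLA of the same list was higher. BTLA, TNFRSF13C and CD22 were read in pDCs at medians of 97.9, 36.5 and 28.0 CPM, against 479.5, 639.9 and 122 in B cells. CD79A was read in 99.6% of pDCs but also in 98.9% of T cells, so in these counts it does not mark B cells. The summed level of the 10 B cell markers was 4766 to 6803 CPM in pDCs and 9136 to 11000 in B cells, and 5247 CPM of the pDC sum was CD79A.

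Marker lists of other cell types were summed in the same way. The 20 cDC markers summed to 226 to 626 CPM in the pDCs of healthy and 233 to 549 in those of osteosarcoma dogs, against 2681 to 3791 in cDCs, and 7 of them, ZNF366, BATF3 and XCR1 among them, were at 0. The 12 monocyte markers summed to 1066 to 2295 CPM against 28033 to 35060 in monocytes. Each list holds the 6 genes that gated its class, which widens the gap, and without them the sums were 144 to 463 against 1050 to 1580 CPM for cDCs and 919.7 to 2192 against 1991 to 3815 CPM for monocytes, where the ranges overlapped. Of the monocyte sum in pDCs, 939.7 CPM was the metallothionein gene MT2A, which was higher in pDCs in all 3 comparisons and which has near-identical copies. The 12 T and NK cell markers summed to 195 to 465 CPM against 3342 to 4430 in T cells. The largest part was IL7R, the interleukin 7 receptor chain, which had a lowest level of 169, a median of 296 and a highest of 444 CPM in pDCs against means of 13.9, 2.22 and 1.84, with CD28 and GZMA at 0. The 9 neutrophil markers summed to 119 to 352 CPM in healthy and 55.1 to 1735 CPM in osteosarcoma dogs. The highest sums were in OS5 (1735 CPM, with S100A8 at 852 and S100A12 at 724) and OS8 (498 CPM), and the other 4 osteosarcoma dogs lay at 93.0 CPM or below. The 8 CD34 progenitor markers summed to 15.5 to 49.5 CPM in healthy and 7.77 to 204 CPM in osteosarcoma dogs. ZNF521, the highest of them with a mean of 17.3 CPM, was higher in pDCs in all 3 comparisons. The 6 erythroid markers were all at 0, and the 10 cell cycle genes summed to 0 to 32.5 CPM. What part free RNA plays in these sums was not tested.

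The genes by which the study had described canine pDCs on these same samples, outside the rule, were all higher, and for that reason they are no independent evidence. STYXL2, a pseudophosphatase gene, had a lowest pDC level of 266, a median of 376 and a highest of 474 CPM, against 6 UMIs in all cDCs, 1 in all B cells and 10 in all monocytes of the 10 dogs. It was found in 95.1% of pDCs and 0.0636% of T cells (47.8% and 0.0239% after thinning). CCND1, a cell cycle regulator, was at 428 ± 133 CPM, ANK1, a membrane anchor, at 308 ± 122 and OCIAD2 at 276 ± 128, and for each of these genes the lowest pDC level lay above the other 3 classes.

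The 10 genes ranked furthest above all 3 classes were STYXL2, TTYH1, RARRES2, MAL, PTPRM, FZD2, GALNTL6, PDZRN3, CRTAC1 and SULF1. They are the top of 444 genes called higher in all 3 with at least 50 CPM in pDCs, ranked by the smallest of the 3 fold changes. RARRES2, which encodes chemerin, a chemoattractant for pDCs and other leukocytes, was read in every dog, with a lowest level of 652, a median of 937 and a highest of 1256 CPM against means of 0.744 in cDCs, 5.87 in B cells and 0.925 in monocytes. FZD2, a Wnt receptor, was at 207 ± 34.3 CPM, PTPRM, an adhesion phosphatase, at 197 ± 60.7, and SULF1, a heparan sulfatase, at 271 ± 97.6. TTYH1 (130.1 ± 33.5 CPM) and CRTAC1 (75.5 ± 22.0 CPM) had 0 UMIs in cDCs, so they were at least 479-fold and 282-fold higher there. TTYH1 and CRTAC1 thus passed the count filter against cDCs through pDCs alone. For all 10 genes the pDCs of every dog lay above every dog of the other classes. The genes were ranked on these same dogs, so this is no further evidence.

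Of 252 genes called lower in all 3 with at least 50 CPM in each of the other classes, the 5 furthest below by the fold change nearest to 0 were POU2F2, KLF3, GSDMD, NCOA7 and PECAM1. Genes at lower levels elsewhere, such as CD40 and HERC6, were not ranked. POU2F2, the B cell octamer factor OCT2, was at 4.92 ± 3.49 CPM in pDCs against 131, 439 and 227 CPM. GSDMD, the pore protein of pyroptosis, was at 8.29 ± 7.20 CPM against 146, 242 and 115, and PECAM1, the adhesion molecule CD31, at 6.82 ± 8.44 against 102, 169 and 120.2. No dog's pDC level reached the range of another class for these 5 genes, which were ranked on these same dogs.

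Dogs outside the fits mostly gave the same directions. The other 6 dogs with pDCs held 17 of them with 260060 UMIs in all, too few to fit. Of 766 genes called higher in all 3 comparisons with enough counts there, 722 (94.3%) lay above all 3 classes in these dogs, against 29.4% of all 10598 genes. Of 659 genes called lower, 613 (93.0%) lay below all 3, against 38.8%. All 10 top genes were on the same side, with STYXL2 at 315 CPM in those 17 pDCs against 1.09 in cDCs and 0 in B cells and monocytes, and IRF8 at 649.9 against 48.7, 119 and 17.4.

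A small set of pDCs carried genes of the pre-dendritic cell (pre-DC), a circulating precursor that shares features with pDCs. Of 9, 8 and 8 pre-DC genes tested, 2, 7 and 7 were higher in pDCs than in cDCs, B cells and monocytes and 3, 0 and 0 lower (median log2 fold changes -0.83, 3.96 and 4.90). The study lists FCER1A and the rule gene IGF1 for pre-DCs as well as for pDCs, and neither is in these counts. Over all genes, 13.2%, 15.5% and 14.8% were higher and 19.1%, 18.7% and 22.2% lower. MTUS2 was higher in pDCs than in all 3 classes, at 486 ± 72.6 CPM against 18.7, 58.7 and 1.70, and so was PTPRS, given above. Pre-DCs were not gated as a class of their own, so pDCs were not compared with them. FGF12, GPHA2 and PLCE1 were instead lower than in cDCs (means of 26.3, 16.7 and 18.3 CPM against 114, 79.1 and 66.9) and higher than in B cells and monocytes. The study lists these 3 genes for pre-DCs and not for its cDC types. The genes that gated cDCs did not exclude pre-DCs, and what part of the cDC level came from pre-DCs was not tested. In pDCs they ran from 0 to 91.0, 0 to 53.4 and 0 to 80.2 CPM, so some dogs had none. AXL, a receptor kinase of human pre-DCs, was at 1.29 CPM.

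Single cells showed where these genes lay. At least 1 of FGF12, GPHA2 and PLCE1 was found in 46 of 245 pDCs, at least 2 in 8 from 5 dogs, and all 3 in 4. Those 4 cells all held IFI30, IRF8 and IGKC, and none held TLR9. None held RYR1 or PRKG1 either, but these are genes of the rule and are only described. TLR9 was found in 64.8% of the 199 pDCs without any of the 3 genes. The 20 cells at the edge of the rule weighed on this. With at least 4 of the 6 genes required, the log2 fold changes against cDCs moved from -1.91 to -3.09 for FGF12, from -2.06 to -3.48 for GPHA2 and from -1.86 to -3.20 for PLCE1. Genes low in pDCs moved with them. SPI1 against B cells went from -2.15 to -3.37, and against cDCs PECAM1 went from -3.78 to -6.55 and NCOA7 from -4.92 to -6.88. KLF4 went from -3.26 to -5.07 against cDCs and from -3.57 to -5.44 against monocytes, and IRF4 from -2.55 to -3.23 and from -1.79 to -2.45. FGF12 was no longer called against cDCs in the 3 dogs with at least 25 pDCs (-1.67).

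Within pDCs, healthy and osteosarcoma dogs were compared by the same test, with 4 healthy and 6 osteosarcoma dogs. By edgeR, 0 of 8997 genes were called (0.00%), 391 (4.35%) had an unadjusted p below 0.05, and DESeq2 called 1 gene. IRF8 was at a lowest, median and highest level of 523, 785 and 1086 CPM in healthy and 464, 775 and 1018 in osteosarcoma dogs, with a log2 fold change of -0.01 ± 0.20. The groups overlapped. TLR9, TLR7 and TLR3 changed by 0.02 ± 0.24, -0.07 ± 0.26 and 0.21 ± 0.18, none called. In each list tested, 0 genes were called, and the list medians lay at -0.02 for sensing, 0.03 for the secretory pathway and -0.15 for antigen presentation. S100A12, a neutrophil marker, had a log2 fold change of 3.84 ± 1.25 (unadjusted p = 0.00537, adjusted p = 0.960 by edgeR), with 724 CPM in OS5 and 50.2 CPM or less in healthy dogs. The part of neutrophil RNA in the comparison was not tested. A change that misses the threshold does not show equal levels.

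Interferon-stimulated genes were spread over the dogs of both groups. IFI44 ran from 25.9 through 76.5 to 154 CPM in healthy and from 61.4 through 112 to 222 CPM in osteosarcoma dogs (0.55 ± 0.35), with overlap. The summed level of the 21 interferon-stimulated genes was 456 to 1149 CPM in healthy and 704 to 1080 in osteosarcoma dogs.

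**Figure D5:**
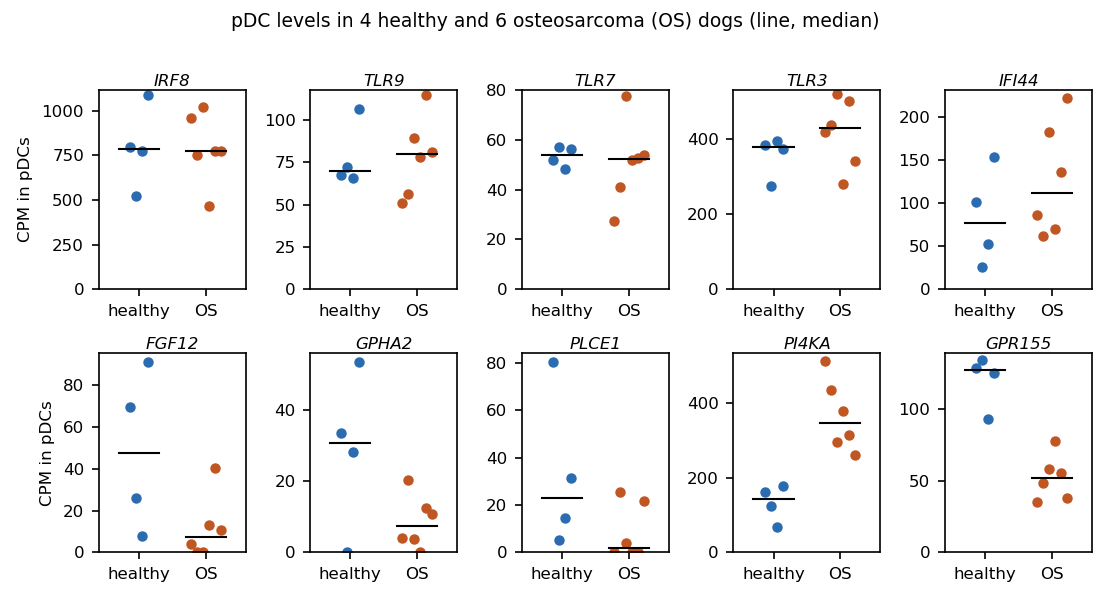
Levels (CPM) of 10 genes in the pDCs of 4 healthy (blue) and 6 osteosarcoma (OS, orange) dogs, a point for each dog and a line at the median. IRF8, TLR9, TLR7, TLR3 and IFI44 overlapped between the groups, whereas PI4KA lay higher and GPR155 lower in all 6 osteosarcoma dogs than in the healthy dogs. PI4KA and GPR155 were picked after their values were seen.

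PI4KA and GPR155 had an adjusted p between 0.01 and 0.05. PI4KA, a kinase that makes phosphatidylinositol 4-phosphate, ran from 66.9 through 144 to 179 CPM in healthy and from 260 through 345 to 512 CPM in osteosarcoma dogs, so the groups did not overlap. Its log2 fold change was 1.52 ± 0.24 with an adjusted p of 0.0148 by edgeR, and over the alternatives the adjusted p ran from 8.12e-12 to 0.231. It was called by DESeq2 (adjusted p = 0.000175), with at least 4 genes of the rule (0.00246) and with no filter beyond 1 count. GPR155, a cholesterol-sensing lysosomal membrane protein, ran from 93.6 to 135 CPM in healthy and from 35.4 to 78.0 in osteosarcoma dogs (-1.17 ± 0.22, adjusted p = 0.0499 by edgeR), with 0.000971 to 0.681 over the alternatives and a call with no filter beyond 1 count. BCL11A was far from a call although its groups did not overlap, with 1107 to 1155 CPM in healthy and 1232 to 1512 in osteosarcoma dogs: the change was 0.28 ± 0.13 and its adjusted p was 0.999 by edgeR. These 3 genes were picked after their values were seen. How many of all genes did not overlap between the groups was not counted, so non-overlap is not read as particular to these genes.

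Of 8 pre-DC genes tested between the groups, 0 were called, 2 had a log2 fold change above 0 and the median was -0.52. MTUS2 and AK8 stood at 0.18 ± 0.15 and 0.25 ± 0.36, and the lowest 3 were FGF12, PLCE1 and GPHA2. FGF12 had a median of 47.9 CPM in healthy and 7.38 in osteosarcoma dogs (-1.96 ± 0.67), GPHA2 30.9 and 7.38 (-1.66 ± 0.58) and PLCE1 23.1 and 1.94 (-1.87 ± 0.70). The unadjusted p values were 0.00742, 0.00846 and 0.0132 and the adjusted p was 0.960 for each by edgeR. With at least 4 of the 6 rule genes required, the log2 fold changes were 0.05, -0.10 and 0.36, so these low values rested on the cells at the edge of the rule. Without any filter on low counts FGF12 was called (adjusted p = 0.00206 by edgeR). It was also called with the replicate block (adjusted p = 0.00432 by edgeR). That fit held 2 healthy and 2 osteosarcoma dogs, left out H3 and paired dogs by numbers that the labels do not call pairs. In cells, at least 2 of the 3 genes were found in 6 of 126 healthy and 2 of 119 osteosarcoma pDCs, and 4 of the 6 were from H3. Depth overlapped between the groups, with median UMIs per pDC of 12297 to 15520 in the fitted healthy and 13009.5 to 17115.5 in the fitted osteosarcoma dogs, and mitochondrial shares of 4.86% to 6.27% and 4.30% to 6.75%. In all these sums, fewer cells that carry a gene and less of its RNA per cell cannot be told apart.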

How the data were processed

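Peripheral blood mononuclear cells of 17 dogs were profiled with 10x Genomics 3′ chemistry. Per the labels and the study's methods, the authors aligned reads to CanFam3.1 and made the deposited UMI count matrices with Cell Ranger 7.0.0, 1 per dog, before any filter on quality. The study aligned each sample both with and without intronic reads, and which run these counts come from is not given in the sources used here. Cells with 200 to 4500 genes, 500 to 20000 UMIs and under 10% mitochondrial UMIs were kept. No doublets were removed in the main analysis. pDCs were taken by the rule given above. Of the other cells without CD3E, cDCs held at least 3 of ZNF366, SDC2, CD1C, PKIB, NCAM2 and ECM1, B cells held MS4A1 and PAX5, and monocytes held at least 4 of LYZ, BPI, LRMDA, F13A1, FN1 and NRG1. T cells held CD3E and fewer than 2 of these 6 genes.

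Counts were summed per dog and class for dogs with at least 10 cells, a filter of at least 10 counts per gene was set, and sums were tested with edgeR 4.0.16 in R 4.3.3 (TMM, quasi-likelihood test, adjusted p below 0.01, log2 fold change beyond 0.58), with the dog as a block between classes. Standard errors were derived from the quasi-likelihood F. A fold against a class at 0 UMIs is a bound against 3 counts over the group. Shares were compared by an exact test in scipy 1.17.1 with a threshold of 0.05. DESeq2 1.42.0 and the Scrublet of scanpy 1.11.5 served as alternatives, and the fits were tested on simulated data. Between the groups, 26 of 100 genes changed 2-fold and 71 of 98 changed 4-fold were recovered there. At 2-fold, 43 of 98, 44 of 99 and 26 of 99 were recovered against cDCs, B cells and monocytes. The libraries of each group differed by more than sampling noise, with a chi-square per degree of freedom of at least 13.6 over 66 pairs. Named genes were those of the tested gene lists and those ranked by their smallest fold change over the 3 comparisons, with at least 50 CPM in pDCs for the 10 higher genes and in each other class for the 5 lower genes. The members and lists were chosen with earlier results of these data known. The alternatives without the upper limits in the gene fits and without the mitochondrial limit for the share were chosen after seeing the data. Genes under an Ensembl number alone were counted but not named. The counting of overlapping and antisense genes is not given in the sources used here. The levels of some genes of the lists are not reported here.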

Additional observations from a re-analysis of the deposited data

Results flagged for a closer look

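In 6 of 58 sets of dogs tested, 1 dog lay far from the rest (its gap to the nearest dog was a large part of the whole range), and chance alone sets apart about 1 in 20 sets. All 6 were levels in pDCs over the 10 fitted dogs. SULF1 stood at 484 CPM in OS5, with the next dog at 316 CPM. NCOA7 stood at 30.3 CPM in OS8 and at no more than 12.8 CPM elsewhere. KLF4 reached 31.04 CPM in H3 and at most 9.42 CPM in the other dogs. OCIAD2 was at 585 CPM in H4, above 386 CPM in the next dog. PLCE1 was at 80.2 CPM in H3 and 31.4 CPM in the next dog, and H3 also held 4 of the 8 pDCs with at least 2 of the 3 pre-DC genes. DNTT was at 156 CPM in OS8, with 103 CPM in the next dog.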

How the results depend on the processing

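The shift in the pDC share, osteosarcoma minus healthy dogs, was below 0 and did not pass in each alternative run. It was -0.119 to -0.0101 percentage points when each dog was left out in turn, and -0.0353 (p = 0.813, exact test) with no mitochondrial limit. Without the old osteosarcoma dogs it was -0.0416 percentage points (p = 0.639, exact test). In all, 7 dogs held fewer than 10 pDCs, and in OS3 (1239 kept cells) a share under 0.242% could go unseen. The main design found 0 genes between the groups within pDCs. That count was 1 with DESeq2, 19 with no filter beyond 1 count, 2 with at least 4 of 6 genes, 3 at an adjusted p below 0.05 with any fold, and 0 to 1 with each dog left out (1 without OS5 and 1 without OS8). Without the old osteosarcoma dogs, 7 dogs were fitted and the count was 0. At least 25 cells per dog could not be fitted for lack of dogs. Against cDCs, 3610 genes fell to 2292 with at least 25 cells per dog and to 2192 with filterByExpr, and against B cells 3904 fell to 2202 and 2306. Both settings use fewer dogs or genes. Against monocytes the 5001 genes stayed within 1.5 times in every alternative run. With each dog left out, the counts were 3386 to 3557, 3656 to 3840 and 4729 to 4908.

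Replicate numbers occur in both groups but the labels do not say that they pair dogs. With the replicate block, 13 genes were called between the groups in the 4 dogs that share numbers, and for the shares the median difference over 7 pairs was -0.0141 percentage points (p = 0.4375, exact sign-flip test of the mean), with osteosarcoma higher in 3 of 7. The deviations of same-numbered dogs correlated at -0.007 and -0.002 over 6160 genes. Between classes, without the dog as a block, 3554, 3924 and 4978 genes were called. Of the named genes' values, 3402 stayed on their side of the threshold, 13 passed it newly, 16 no longer passed and 0 called values reversed. Among the 3402, 23 values that were not called turned sign, such as IL3RA against B cells (1.85 to -0.09) and, between the groups, FGF12 (-1.96 to 0.05) and PLCE1 (-1.87 to 0.36), each with at least 4 of 6 genes.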
